A study of Mus musculus with 2 samples.

Results

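The mouse genes that detoxify oxidants and conjugate glutathione were followed in long-read RNA sequencing of adrenal gland tissue. The genes were chosen by symbol: glutathione transferases (Gst and Mgst), glutathione peroxidases (Gpx), peroxiredoxins (Prdx), superoxide dismutases (Sod), thioredoxins and their reductases (Txn, Txnrd), Txnip, catalase (Cat), the glutathione synthesis and recycling enzymes (Gclc, Gclm, Gss, Gsr), glutaredoxins (Glrx), sulfiredoxin (Srxn1), Nnt and Nqo1. The annotation held 61 gene records under 60 of these symbols, with a second record for Nnt, among 55536 annotated genes. Of the 61 records, 58 had at least 1 read, 53 of them in replicate 1 and 58 in replicate 2, among 18168 genes with a read. No read of Gpx2, Gpx5 or Gstt4 was found in either library, which allows each a level of at most 3.99 CPM (replicate 1) or 2.48 CPM (replicate 2). CPM is reads per 1000000 reads in annotated genes, and those limits correspond to 3 reads.

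The study holds 1 group and compares no conditions. Both libraries were made from total RNA of adrenal glands of male B6CASTF1/J mice aged 25 days, a hybrid of the C57BL/6 and CAST/EiJ strains, with spike-in RNAs added. Labels number them replicates 1 and 2 but leave unclear whether they came from separate animals, so a difference between them is between libraries and may be technical. Reads in annotated genes numbered 752432 in replicate 1 and 1210671 in replicate 2. Each long read was counted once, and CPM was compared between genes with no division by length. Whether transcripts of unlike length were recovered equally was not tested, so an order of genes by level is an order of reads. Levels with ± are means with their SD (n = 2 libraries), and all intervals cover counting error only.

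Oxygen chemistry is a constant demand on the adrenal cortex, because the mitochondrial cytochrome P450 enzymes that make steroids leak electrons to oxygen. Superoxide dismutases turn superoxide into hydrogen peroxide, which catalase, glutathione peroxidases and peroxiredoxins then remove. Glutathione peroxidases and peroxiredoxins are recharged by glutathione or thioredoxin, which draw on NADPH. In mitochondria part of that NADPH comes from the transhydrogenase Nnt. Loss of NNT or TXNRD2 is known in humans as a cause of glucocorticoid deficiency.

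The libraries stood apart in the genes of other tissues. Markers of liver added up to 5.32 CPM in replicate 1, against 54300 CPM in replicate 2, and 8 of 10 were at 0 in replicate 1 (Apoa1, Ahsg, Gc, Mup3, Ttr, Fgb, Fga and Apoc3) while all 10 were read in replicate 2. Markers of skeletal muscle reached 4249 CPM in replicate 1, against 6.61 CPM in replicate 2, with 7 of 10 at 0 in replicate 2 (Acta1, Ckm, Myh4, Tnnt3, Tnnc2, Atp2a1 and Tnni2). The 7 markers of adrenal cortex, which define the labelled tissue, were all read in both libraries and added up to 61457 CPM in replicate 1, against 25032 CPM in replicate 2. Chromaffin cell markers had a sum of 9435 CPM (replicate 1) and 7129 CPM (replicate 2). The part of these other tissues in the differences below was not tested, and in bulk tissue fewer cells of a type and less RNA per cell cannot be told apart.

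The antioxidant and glutathione genes together took 1.05% of all reads in annotated genes in replicate 1, against 1.43% in replicate 2, or 10471 and 14330 CPM (12401 ± 2729 CPM). Peroxiredoxins with sulfiredoxin were the most abundant role in both libraries, at 3244 CPM in replicate 1 and 3233 CPM in replicate 2. Soluble glutathione transferases ranged more widely, with 954 CPM in replicate 1 and 3007 CPM in replicate 2. Membrane glutathione transferases had 776 CPM in replicate 1, against 2267 CPM in replicate 2. Of the 10 roles these had the widest distance between the libraries, while glutathione peroxidases (1635 CPM in replicate 1, 1730 CPM in replicate 2) and glutaredoxins (605 CPM in replicate 1, 553 CPM in replicate 2) lay close. The thioredoxin system held 1380 CPM in replicate 1, against 1086 CPM in replicate 2, and superoxide dismutases 662 CPM in replicate 1, against 464 CPM in replicate 2.

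**Figure D1:**
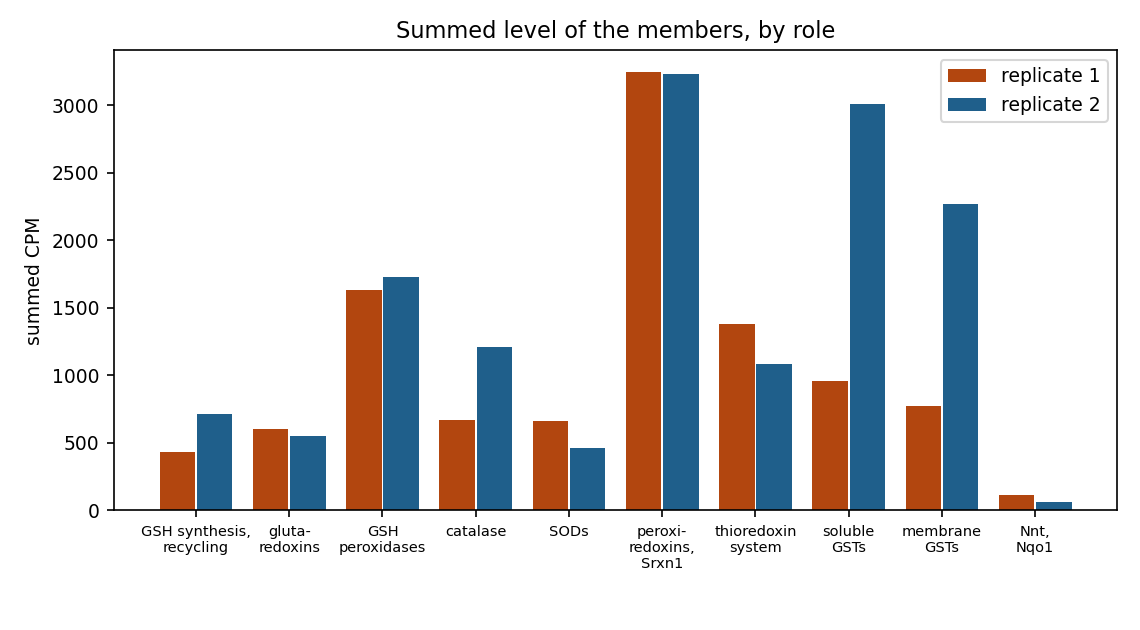
Summed level of the antioxidant and glutathione genes in CPM, by role, in replicate 1 (left bar of each pair) and replicate 2 (right bar); the axis starts at 0. The soluble and the membrane glutathione transferases stand lowest in replicate 1 relative to replicate 2, at 954 against 3007 CPM and 776 against 2267 CPM, while the peroxiredoxins with Srxn1 are level at 3244 and 3233 CPM.

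For each gene a two-sided Fisher's exact test compared its reads in both libraries, with ratios given as replicate 1 over replicate 2. Of 55 records tested, 11 were called higher in replicate 1, 25 were called lower and 19 were not called at an adjusted p under 0.05. Over all 11382 genes tested, 25.3% were called higher and 11.5% lower in replicate 1, or 36.8% in either direction. The median log2 ratio was −0.56 over these 55 records and 0.34 over all genes tested. The former stayed at −0.56 with the 3 records that had no read in replicate 1 set at 3 reads there. That setting could not move it, since these 3 lie below it either way. The all-gene median of 0.34 depends on the scaling: with TMM factors, which lower every log2 ratio by 0.36, it was −0.02, and the median of the 55 records was −0.92. On the TMM scale 5 of the 55 were called higher and 29 lower, against 13.6% higher and 18.0% lower over all genes. The 5 were Srxn1, Sod3, Gpx3, Prdx3 and Txnrd1. Counting only differences of at least 2-fold on library totals, 4 of the 55 were higher in replicate 1 and 15 lower, against 15.5% higher, 8.96% lower and 24.4% in either direction over all genes.

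**Figure D2:**
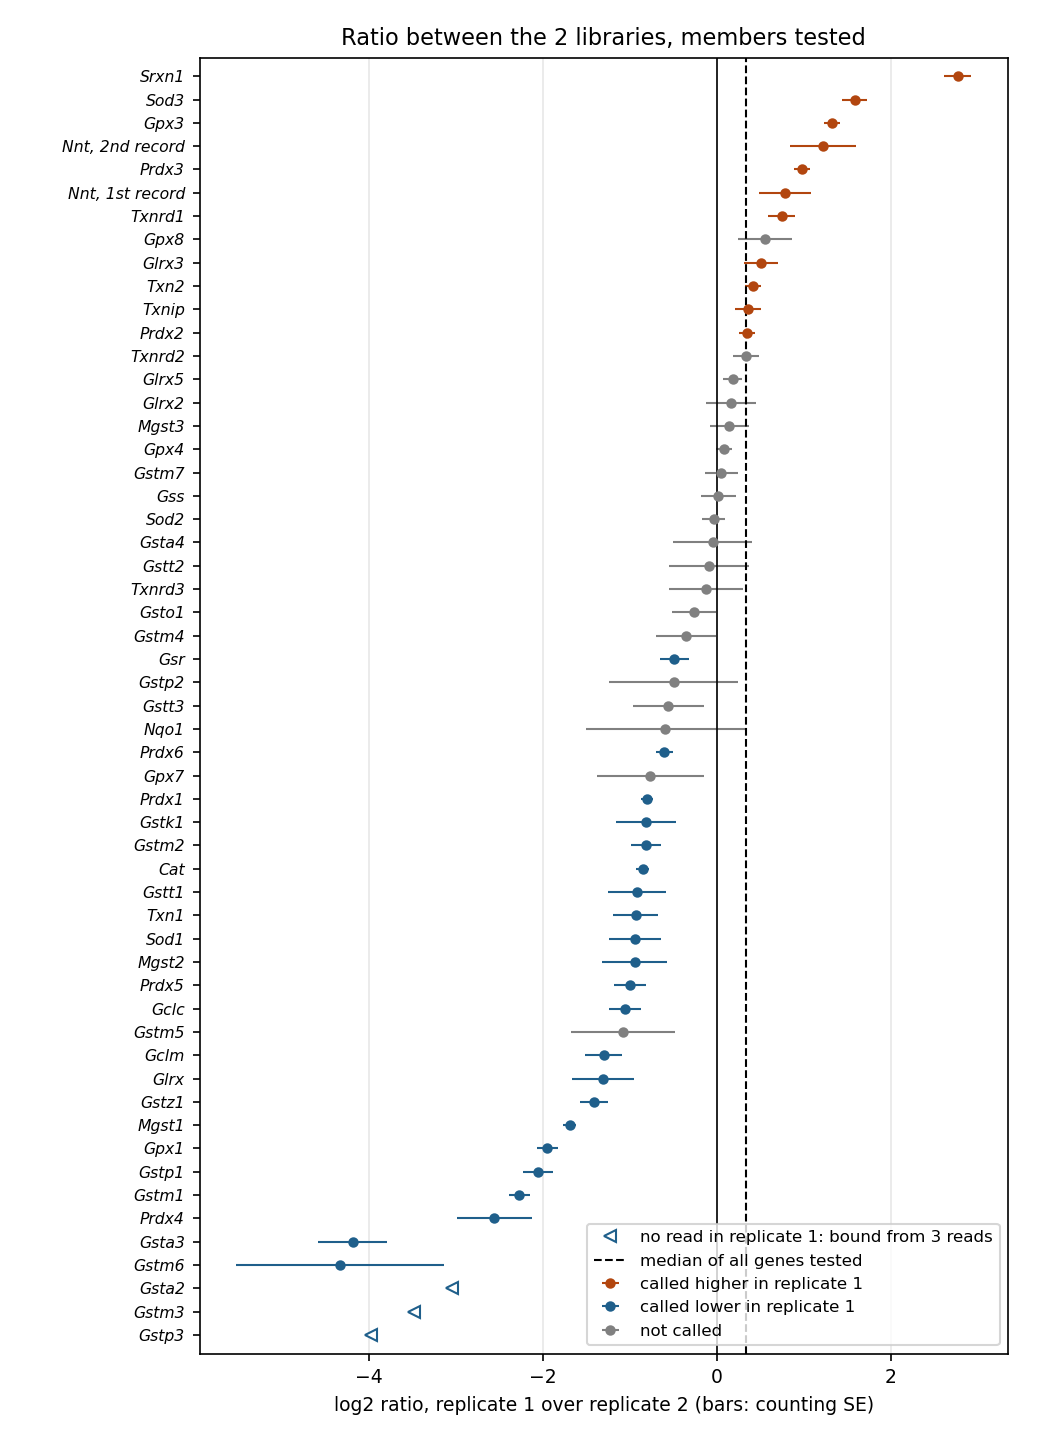
Log2 ratio of replicate 1 over replicate 2 for the 55 records tested, with bars for the counting SE; open triangles mark the 3 genes with no read in replicate 1, placed at the bound that 3 reads give, and the dashed line is the median of all genes tested (0.34). Most glutathione transferases lie left of both lines, and Srxn1 lies farthest right at 2.77.

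Peroxiredoxins reduce peroxides through a reactive cysteine. The cytosolic Prdx1 had 762 CPM in replicate 1 and 1330 CPM in replicate 2 (log2 ratio −0.80 ± 0.07 counting SE, adjusted p = 3.38e-31 by Fisher's exact test). The mitochondrial Prdx3 went the other way, with 746 CPM in replicate 1 and 378 CPM in replicate 2 (0.98 ± 0.09, Fisher's exact adjusted p = 1.32e-25). Prdx6, which reduces phospholipid hydroperoxides, had 440 CPM in replicate 1 and 669 CPM in replicate 2, and Prdx5, found in mitochondria and peroxisomes, 108 CPM in replicate 1 and 216 CPM in replicate 2. Both were called lower in replicate 1. Prdx2, the peroxiredoxin of red blood cells among other places, had 575 CPM in replicate 1 and 454 CPM in replicate 2. It was called higher in replicate 1 on library totals (log2 ratio 0.34) but lay at −0.02 with TMM factors and was then not called. Prdx4, the peroxiredoxin of the endoplasmic reticulum, had the fewest reads of the 6, with 12 in replicate 1 and 118 in replicate 2. It was called lower.

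Sulfiredoxin, Srxn1, restores peroxiredoxins whose cysteine has been over-oxidised, and in mouse adrenal cortex it is known to act on Prdx3. It had 450 reads (598 CPM) in replicate 1 and 106 reads (87.6 CPM) in replicate 2, 6.83-fold higher in replicate 1, and the gene ranked 205 among all genes in replicate 1 and 2206 in replicate 2. The log2 ratio was 2.77 ± 0.16 (Fisher's exact adjusted p = 6.26e-92), the highest of the 55 records, and it was also called with each of the 3 other scalings tried. Its leading transcript Srxn1-201 held 92.2% of its reads in replicate 1 and 68.9% in replicate 2 (Fisher's exact adjusted p = 1.29e-07), a difference that was no longer called once incomplete splice matches and genomic models were left out.

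Among enzymes that remove hydrogen peroxide with glutathione, the secreted Gpx3 had 820 CPM in replicate 1 and 328 CPM in replicate 2 (log2 ratio 1.32 ± 0.09, Fisher's exact adjusted p = 8.59e-46). Cytosolic Gpx1 was lower in replicate 1, with 217 CPM there and 840 CPM in replicate 2 (−1.95 ± 0.12, Fisher's exact adjusted p = 1.24e-75). Gpx4, the phospholipid hydroperoxidase that protects cells from ferroptosis, had 534 CPM in replicate 1 and 507 CPM in replicate 2 and was not called on library totals (log2 ratio 0.08), while with TMM factors it lay at −0.28 and was called lower. Gpx3 and Gpx1 were thus called in opposite directions within 1 role. Gpx7 and Gpx8, of the endoplasmic reticulum, had 7 and 41 reads in replicate 1 and 20 and 45 reads in replicate 2, and Gpx6 had no read in replicate 1 and 1 read in replicate 2. Catalase, the peroxisomal enzyme that splits hydrogen peroxide, had 670 CPM in replicate 1 and 1210 CPM in replicate 2 and was called lower in replicate 1 (log2 ratio −0.85 ± 0.07, Fisher's exact adjusted p = 2.33e-31).

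The extracellular superoxide dismutase Sod3 had 364 CPM in replicate 1 and 121 CPM in replicate 2 (log2 ratio 1.58 ± 0.15, Fisher's exact adjusted p = 5.61e-27). Mitochondrial Sod2 was level on library totals, with 258 CPM in replicate 1 and 265 CPM in replicate 2 (log2 ratio −0.04), but was called lower with TMM factors (−0.40). Cytosolic Sod1 had the fewest reads of the 3, with 30 (39.9 CPM) in replicate 1 and 94 (77.6 CPM) in replicate 2. It was called lower.

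In the thioredoxin system, the mitochondrial thioredoxin Txn2 had more reads than the cytosolic Txn1 in both libraries. Txn2 had 630 CPM in replicate 1 and 473 CPM in replicate 2, and Txn1 had 53.2 CPM in replicate 1, against 102 CPM in replicate 2. The cytosolic reductase Txnrd1 had 241 CPM in replicate 1 and 144 CPM in replicate 2 (log2 ratio 0.74 ± 0.15, Fisher's exact adjusted p = 1.04e-05), and the mitochondrial reductase Txnrd2 had 206 CPM in replicate 1 and 164 CPM in replicate 2 and was not called. Txnip, which binds and inhibits thioredoxin, had 226 CPM in replicate 1 and 177 CPM in replicate 2. Txn2 and Txnip were called higher in replicate 1 on library totals (log2 ratios 0.41 and 0.35), yet with TMM factors neither was called, at 0.06 and −0.003. Txnrd3, a reductase of testis, had 18 reads in replicate 1 and 32 in replicate 2.

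Glutathione is built by glutamate-cysteine ligase (catalytic subunit Gclc, modifier Gclm) and glutathione synthetase (Gss), and glutathione reductase (Gsr) recycles it. Gclc had 108 CPM in replicate 1 and 225 CPM in replicate 2, Gclm 73.1 CPM in replicate 1 and 182 CPM in replicate 2, and Gsr 142 CPM in replicate 1 and 201 CPM in replicate 2, and all of these were called lower in replicate 1. Gss was level on library totals, with 109 CPM in replicate 1 and 108 CPM in replicate 2 (log2 ratio 0.01), and lay at −0.34 with TMM factors, not called. Glutaredoxins reduce glutathione adducts, and Glrx5, which serves mitochondrial iron-sulfur cluster assembly, led them with 383 CPM in replicate 1 and 338 CPM in replicate 2, not called. Glrx3 had 138 CPM in replicate 1 and 97.5 CPM in replicate 2 and was called higher on library totals alone, while Glrx had 20 reads in replicate 1 and 81 in replicate 2 and was called lower. NADPH-quinone reductase Nqo1 had 3 reads in replicate 1 and 8 in replicate 2.

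**Figure D3:**
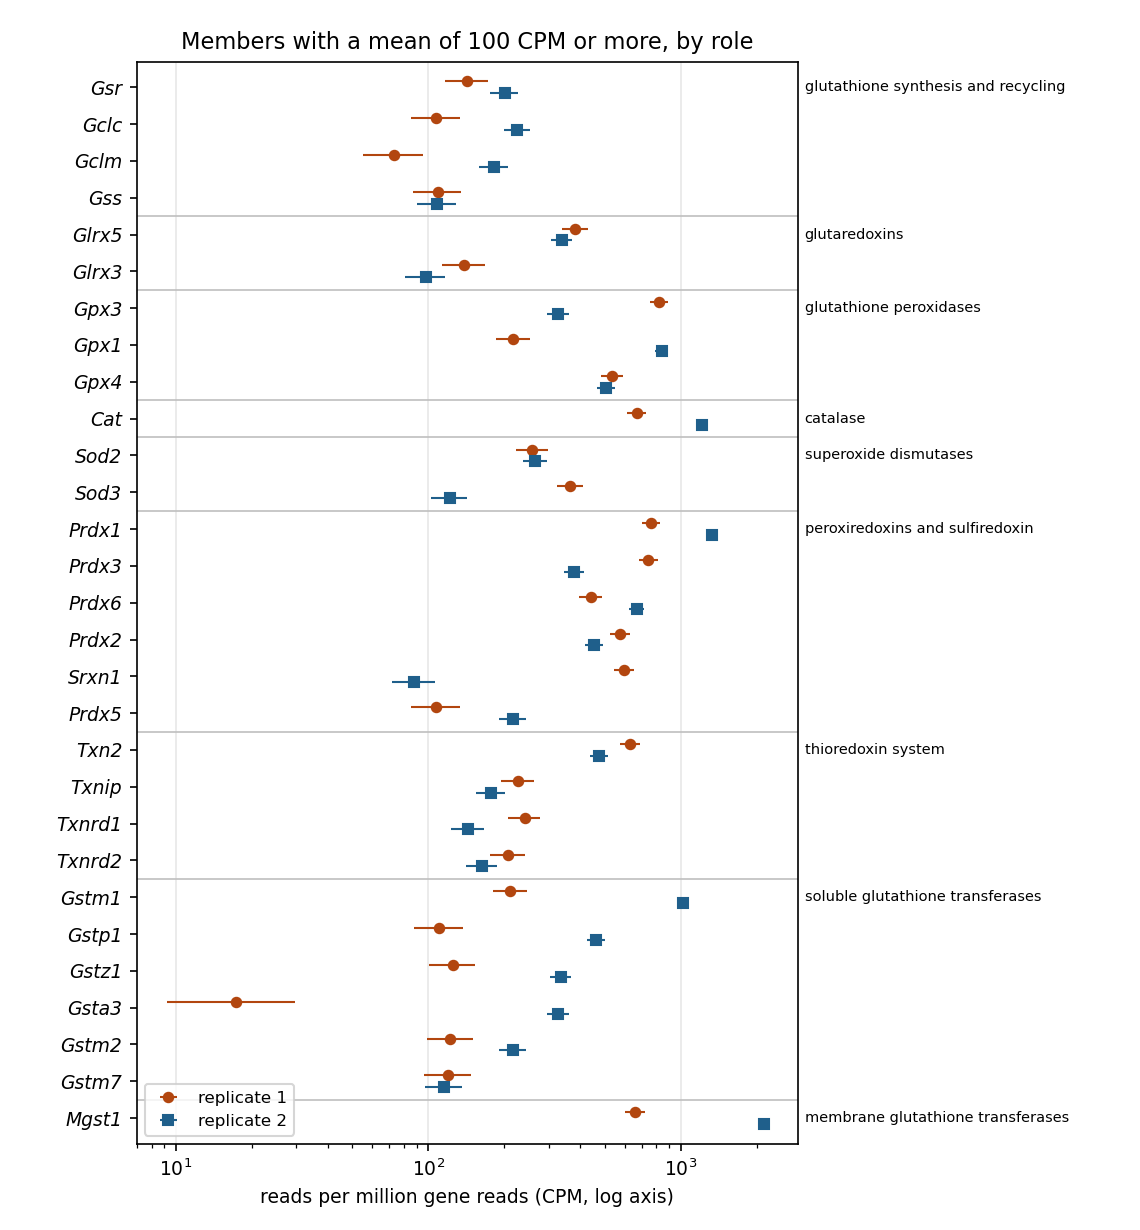
Level in CPM (log axis) of every gene with a mean of at least 100 CPM over the libraries, grouped by role, with replicate 1 above replicate 2 in each row and bars for the 95% exact Poisson interval of the count. Mgst1 reaches the highest level, 2134 CPM in replicate 2, and Gsta3 shows the widest gap, 17.3 CPM in replicate 1 against 326 CPM in replicate 2.

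Glutathione transferases join glutathione to electrophiles, and the soluble ones fall into classes named by letter. Of 19 soluble transferase genes tested, 0 were called higher in replicate 1, also at an unadjusted p under 0.05, and 11 were called lower. Over all genes tested, 25.3% were called higher and 11.5% lower on library totals. With TMM factors, with DESeq2 size factors and with the 618 genes over 10-fold different left out of the totals, 13 were called lower. Over all genes, 18.0%, 18.3% and 17.9% were called lower on these scalings, in that order. Liver markers, at 5.32 CPM in replicate 1 and 54300 CPM in replicate 2, lay in the same direction as these transferases, Cat and Gpx1, and their part in the result was not tested. On library totals the median log2 ratio of the 19 transferase genes was −0.92, against 0.34 over all genes tested. Mgst1, the abundant transferase of microsomal and outer mitochondrial membranes, had 659 CPM in replicate 1 and 2134 CPM in replicate 2 (log2 ratio −1.69 ± 0.07, Fisher's exact adjusted p = 9.27e-159). It ranked 163 among genes of replicate 1 and 41 in replicate 2. Mgst2, which can make leukotriene C4, had 19 reads in replicate 1 and 60 in replicate 2 and was called lower, and Mgst3 had 69 reads in replicate 1 and 101 in replicate 2 and was not called.

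The mu class lies in 1 cluster on chromosome 3, from Gstm5 (starting at 107895821, mm10) to Gstm4 (ending at 108044894). Gstm1, the main mu enzyme of mouse liver, had 211 CPM in replicate 1 and 1023 CPM in replicate 2 (log2 ratio −2.27 ± 0.12, Fisher's exact adjusted p = 3.01e-111). Gstm2 had 122 CPM in replicate 1 and 216 CPM in replicate 2 and was called lower, whereas its closest paralog Gstm7, at 85.2% coding identity, had 120 CPM in replicate 1 and 116 CPM in replicate 2 and was not called (log2 ratio 0.05, or −0.31 with TMM). Gstm3 had 0 reads in replicate 1 and 54 in replicate 2, 11.2-fold lower in replicate 1 with 3 reads set there. That fold leaves out the counting error of the replicate 2 reads, so it is not a lower limit. Gstm6 had 1 read in replicate 1 and 48 in replicate 2, and the ratio of replicate 2 over replicate 1 was 29.8 with a counting interval of 5.10 to 1203. Gstm4 and Gstm5, with 26 and 7 reads in replicate 1 and 54 and 25 reads in replicate 2, were not called. Neighbours in the cluster thus ranged from not called to without a read in replicate 1.

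The alpha class ran from not called to without a read in replicate 1. Gsta3 (chr1:21240589-21265661, + strand), an alpha enzyme whose human and pig counterparts also isomerise steroid intermediates, had 13 reads (17.3 CPM) in replicate 1 and 395 reads (326 CPM) in replicate 2 (log2 ratio −4.19 ± 0.40, Fisher's exact adjusted p = 5.46e-63). Gsta2 had 0 reads in replicate 1 and 40 in replicate 2, 8.29-fold lower in replicate 1 with 3 reads set there, again not a lower limit. Gsta4, which conjugates 4-hydroxynonenal, had 16 reads in replicate 1 and 27 in replicate 2 and was not called. Its ratio of replicate 2 over replicate 1 was 1.05, with a wide counting interval of 0.545 to 2.08. Gsta1 had 0 reads in replicate 1 and 1 in replicate 2. Since the coding sequences of Gsta1 and Gsta2 are 97.6% identical, the assignment of reads between them is uncertain. Of the other classes, Gstz1, which isomerises maleylacetoacetate in tyrosine breakdown, had 125 CPM in replicate 1 and 335 CPM in replicate 2 (log2 ratio −1.42 ± 0.16, Fisher's exact adjusted p = 1.32e-19). Gstt1 and Gstk1 were called lower as well, with 25 and 23 reads in replicate 1 and 77 and 66 reads in replicate 2. Gsto1, Gstt2 and Gstt3 were not called, and Gsto2 had 4 reads in replicate 1 and 1 read in replicate 2, too few to test.

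The pi class consists of 3 neighbours on chromosome 19, on the − strand. Gstp1 (chr19:4035407-4037985) had 83 reads (110 CPM) in replicate 1 and 559 reads (462 CPM) in replicate 2 (log2 ratio −2.06 ± 0.17, Fisher's exact adjusted p = 1.23e-44). Gstp3 (chr19:4057477-4059569) had 0 reads in replicate 1 and 76 in replicate 2, 15.7-fold lower in replicate 1 with 3 reads set there, again not a lower limit. Gstp2 (chr19:4040285-4046023) had 5 reads in replicate 1 and 12 in replicate 2 and was not called. Over whole coding sequences of 630 bases, Gstp1 and Gstp2 are 98.1% identical and Gstp1 and Gstp3 73.1%, so the split of reads between Gstp1 and Gstp2 is uncertain, while Gstp3 is more distant. The first 120 coding bases show how far apart the 3 are, with capitals in Gstp1 where either neighbour differs and in Gstp2 and Gstp3 where they differ from Gstp1 (GENCODE M21 transcripts Gstp1-201, Gstp2-201 and Gstp3-202).
Gstp1: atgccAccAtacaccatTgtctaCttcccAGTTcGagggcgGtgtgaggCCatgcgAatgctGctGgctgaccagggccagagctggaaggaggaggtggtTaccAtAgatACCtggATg
Gstp2: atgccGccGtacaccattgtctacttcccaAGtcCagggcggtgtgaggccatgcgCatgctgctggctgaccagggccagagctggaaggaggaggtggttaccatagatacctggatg
Gstp3: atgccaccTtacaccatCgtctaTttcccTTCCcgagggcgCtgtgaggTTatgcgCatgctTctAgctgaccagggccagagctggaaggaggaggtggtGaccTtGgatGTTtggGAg
Gstp2 differs from Gstp1 at 6 of these bases and Gstp3 at 21.

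Several of these genes are textbook targets of the factor Nfe2l2 (NRF2), which binds antioxidant response elements. The core TGACNNNGC was searched on both strands in RefSeq promoter windows (build GRCm38.p6) of 250 bases before to 50 bases after the start site, which were at hand for 53 of the 60 symbols. It was found in 9 of 71 such windows (12.7%) and in 4071 of 32851 windows of all genes (12.4%), so the share was that of promoters in general. The 9 genes were Gclm, Gsta3, Gstm5, Gstm7, Mgst1, Prdx1, Sod1, Srxn1 and Txnrd1. Windows of a gene called higher in replicate 1 (Srxn1) and of 3 called lower (Prdx1, Mgst1 and Gsta3) are printed with the core in capitals.
Srxn1 promoter (chr2:152105274-152105573, + strand): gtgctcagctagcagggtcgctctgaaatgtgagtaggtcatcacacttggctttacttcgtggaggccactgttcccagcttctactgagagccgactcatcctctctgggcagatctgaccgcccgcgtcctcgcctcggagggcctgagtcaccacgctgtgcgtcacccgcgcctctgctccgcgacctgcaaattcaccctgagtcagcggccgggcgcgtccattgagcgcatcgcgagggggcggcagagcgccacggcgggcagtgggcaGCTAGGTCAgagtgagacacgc
Prdx1 promoter (chr4:116685349-116685648, + strand): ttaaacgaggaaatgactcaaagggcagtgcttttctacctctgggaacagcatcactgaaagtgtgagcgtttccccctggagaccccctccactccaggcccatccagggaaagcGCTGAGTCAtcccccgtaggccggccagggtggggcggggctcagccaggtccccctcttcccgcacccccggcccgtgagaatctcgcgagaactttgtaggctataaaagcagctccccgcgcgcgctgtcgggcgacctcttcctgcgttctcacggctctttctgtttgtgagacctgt
Mgst1 promoter (chr6:138140277-138140576, + strand): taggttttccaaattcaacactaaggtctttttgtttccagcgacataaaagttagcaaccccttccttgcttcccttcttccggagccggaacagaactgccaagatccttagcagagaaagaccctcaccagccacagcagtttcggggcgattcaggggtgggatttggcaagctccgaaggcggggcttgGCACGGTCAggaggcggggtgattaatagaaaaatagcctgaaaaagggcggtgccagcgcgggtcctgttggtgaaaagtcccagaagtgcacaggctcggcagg
Gsta3 promoter (chr1:21240335-21240634, + strand): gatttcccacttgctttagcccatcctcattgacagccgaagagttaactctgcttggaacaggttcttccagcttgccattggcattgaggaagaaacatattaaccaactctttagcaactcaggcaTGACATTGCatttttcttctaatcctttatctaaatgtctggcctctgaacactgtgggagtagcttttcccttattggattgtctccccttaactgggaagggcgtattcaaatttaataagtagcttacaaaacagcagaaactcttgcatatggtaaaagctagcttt
The matches start 29 bases after the start site in Srxn1, and 133, 56 and 121 bases before it in Prdx1, Mgst1 and Gsta3. A match describes these letters alone.

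Genes of the same pathway outside the symbol rule were read from 5 lists, of which 54 genes could be tested. Among them 16 were called higher in replicate 1 and 17 lower on library totals, against 25.3% higher and 11.5% lower over all genes. With TMM factors 9 were called higher and 21 lower, against 13.6% and 18.0% over all genes. Of 6 regulators tested, 3 were called higher and 1 lower on library totals, and 2 higher and 1 lower with TMM factors. Nfe2l2 had 154 CPM in replicate 1 and 72.7 CPM in replicate 2 and was called higher, and its inhibitor Keap1 had 34.6 CPM in replicate 1 and 140 CPM in replicate 2 and was called lower. Nfe2l1, a relative of Nfe2l2, had 518 CPM in replicate 1 and 268 CPM in replicate 2, and Cul3, the ubiquitin ligase scaffold that works with Keap1, 210 CPM in replicate 1 and 138 CPM in replicate 2. Regulators had a median log2 ratio of 0.34 on library totals, equal to that of all genes, and −0.02 with TMM factors.

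Of 11 genes that supply NADPH, 5 were called higher in replicate 1 and 4 lower on library totals, at a median log2 ratio of 0.02. With TMM factors the balance turned to 3 higher and 6 lower, at a median of −0.34. The shares over all genes tested were 25.3% higher and 11.5% lower on library totals, and 13.6% and 18.0% with TMM factors. Malic enzyme Me1 led with 1579 CPM in replicate 1 and 717 CPM in replicate 2, while the pentose phosphate enzyme Tkt had 307 CPM in replicate 1 and 1392 CPM in replicate 2. Taldo1, of the same pathway, had 851 CPM in replicate 1 and 688 CPM in replicate 2, and Idh1 722 CPM in replicate 1 and 712 CPM in replicate 2. For glutathione turnover and cystine supply, 10 of 14 genes were tested, with 3 higher and 2 lower on library totals but 1 higher and 3 lower with TMM factors, and Slc7a11, the cystine carrier, and Ggt1 had no read in either library. The mitochondrial glutathione carrier Slc25a39 had 214 CPM in replicate 1 and 393 CPM in replicate 2, and Slc3a2, the partner chain of Slc7a11, 334 CPM in replicate 1 and 151 CPM in replicate 2. Lap3 and Oplah had 102 and 97.0 CPM in replicate 1 and 229 and 85.1 CPM in replicate 2.

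Selenium enters Gpx1, Gpx3, Gpx4 and the thioredoxin reductases as selenocysteine. Of 13 genes of selenium and selenoprotein synthesis, 3 were called higher in replicate 1 and 3 lower on library totals, and 2 higher and 3 lower with TMM factors. All genes tested had shares of 25.3% higher and 11.5% lower on library totals, and 13.6% and 18.0% with TMM factors. Selenop, the plasma selenium carrier made mostly by liver, had 352 CPM in replicate 1 and 2060 CPM in replicate 2, and Sephs2, which makes selenophosphate, 522 CPM in replicate 1 and 1795 CPM in replicate 2. Selenof and Selenok had 142 and 105 CPM in replicate 1 and 116 and 149 CPM in replicate 2. Of 14 other oxidant defence genes tested, 2 were called higher and 7 lower on library totals, and 1 higher and 8 lower with TMM factors. The ferritin chains Fth1 and Ftl1 had 1572 and 796 CPM in replicate 1 and 2157 and 2240 CPM in replicate 2. Aifm2, a ferroptosis suppressor, had 704 CPM in replicate 1 and 366 CPM in replicate 2, and the autophagy receptor Sqstm1 448 CPM in replicate 1 and 604 CPM in replicate 2.

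Full-length reads also showed which transcript forms these genes used. Known annotated transcripts took 88.8% of their reads in replicate 1 and 87.0% in replicate 2, against 77.0% and 75.6% over all genes. Of 40 records that had 2 or more models and 20 or more reads per library, 7 had a leading model whose share was called different between the libraries (Cat, Gpx3, Gstz1, Mgst1, Prdx2, Srxn1 and Txnip), against 12.4% of 5612 genes tested. Without incomplete splice matches (models that stop short of an annotated chain) and genomic models, Gstz1 alone of 36 was called. The share of all genes called under that filter is not given, so this count is not read as particular to these genes. Unannotated intron chains numbered 370, of which 65 occurred in both libraries and 15, in 11 genes, had at least 2 reads in each.

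Reads of the mitochondrial reductase Txnrd2 (chr16:18426384-18479073, + strand) were mainly placed on an intron chain that the annotation does not hold. That chain had 99 of 155 reads in replicate 1 and 137 of 198 in replicate 2, more than any other unannotated chain of these genes, and differed from annotated transcripts in 1 intron, chr16:18443287-18454475. Of reads with an intron between the exons on both sides, 114 of 137 (83.2%, 95% exact interval 75.9 to 89.0%) in replicate 1 and 158 of 181 (87.3%, 81.5 to 91.8%) in replicate 2 used it. Both annotated ways to join those exons had no read, of 137 in replicate 1 and 181 in replicate 2. The 95% exact interval of each reaches 2.66% in replicate 1 and 2.02% in replicate 2. Txnrd2-203 holds a microexon of 20 bases there (chr16:18453721-18453740), and Txnrd2-212 a microexon of 7 bases followed by 13 more bases of the next exon. A further 5 reads in replicate 1 and 11 in replicate 2 ran from the start of the 20-base microexon into the next exon unspliced. The annotated coding sequence around these inserts is given with the inserted 20 bases in capitals.
Txnrd2-203: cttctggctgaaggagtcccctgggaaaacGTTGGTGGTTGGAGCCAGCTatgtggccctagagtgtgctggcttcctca
Txnrd2-212: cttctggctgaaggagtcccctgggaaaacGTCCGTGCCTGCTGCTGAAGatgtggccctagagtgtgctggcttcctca
The unannotated form has no separate microexon: it extends the upstream exon by 12 bases and the downstream exon by the 13 bases that end the Txnrd2-212 insert. That adds 25 bases, 5 more than either annotated form, and of its last 13 added bases 4 equal those that end the Txnrd2-203 microexon, position by position. The 12 bases lie in no annotated transcript and were not compared here. Whether this form stands for the molecules or for how so short an insert was aligned was not tested.

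A second form shared by both libraries lay in Gstm4 (chr3:108040408-108044894, − strand). An unannotated donor inside the exon chr3:108043520-108043601 removed its last 15 bases, equal to 5 codons. It was used in 12 of 26 reads (46.2%, 26.6 to 66.6%) in replicate 1 and in 25 of 51 (49.0%, 34.8 to 63.4%) in replicate 2. The removed bases are in capitals, between 30 bases of the same exon and 30 of the next, in Gstm4-201.
Gstm4-201: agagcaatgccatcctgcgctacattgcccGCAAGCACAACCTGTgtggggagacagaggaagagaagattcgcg
In the reference letters the intron would begin with GC, a donor rarer than GT.

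Of genes with 100 or more reads per library, Txnip alone had a leading model with less than 50% of its reads, Txnip-202 with 46.5% in replicate 1 and 29.9% in replicate 2. Reads of Txnip that used either of a pair of acceptors 3 bases apart at the second exon were 122 of 170 in replicate 1 and 104 of 214 in replicate 2. The other reads lie outside this choice, which is shown with the 3 optional bases in capitals.
Txnip-202: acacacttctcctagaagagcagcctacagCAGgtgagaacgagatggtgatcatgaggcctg
The upstream acceptor, which keeps these bases, was used in 79 of 122 reads (64.8%, 55.6 to 73.2%) in replicate 1 and 66 of 104 (63.5%, 53.4 to 72.7%) in replicate 2, so the intervals overlap almost wholly.

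Gstz1 differed between the libraries in its first exon as well as in its level, an item chosen after its values were seen. The downstream first exon, of Gstz1-204, was used in 28 of 77 reads (36.4%, 25.7 to 48.1%) in replicate 1 and 255 of 328 (77.7%, 72.8 to 82.1%) in replicate 2, with the rest from the upstream first exon of Gstz1-201, whose donor lies 9816 bases before. Reads with the upstream exon numbered 49 in replicate 1 and 73 in replicate 2, and those with the downstream exon 28 and 255. The share of the Gstz1-204 model was 29.8% in replicate 1 and 59.8% in replicate 2 (Fisher's exact adjusted p = 6.39e-06). Each exon brings its own start codon, and the coding bases of the first exon are given in capitals, followed by 30 bases of the shared second exon.
Gstz1-204: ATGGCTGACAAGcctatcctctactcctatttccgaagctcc
Gstz1-201: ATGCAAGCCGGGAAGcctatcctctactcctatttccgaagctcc
The coding ends thus differ in 12 and 15 bases, and the reading frame of the second exon is shared.

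**Figure D4:**
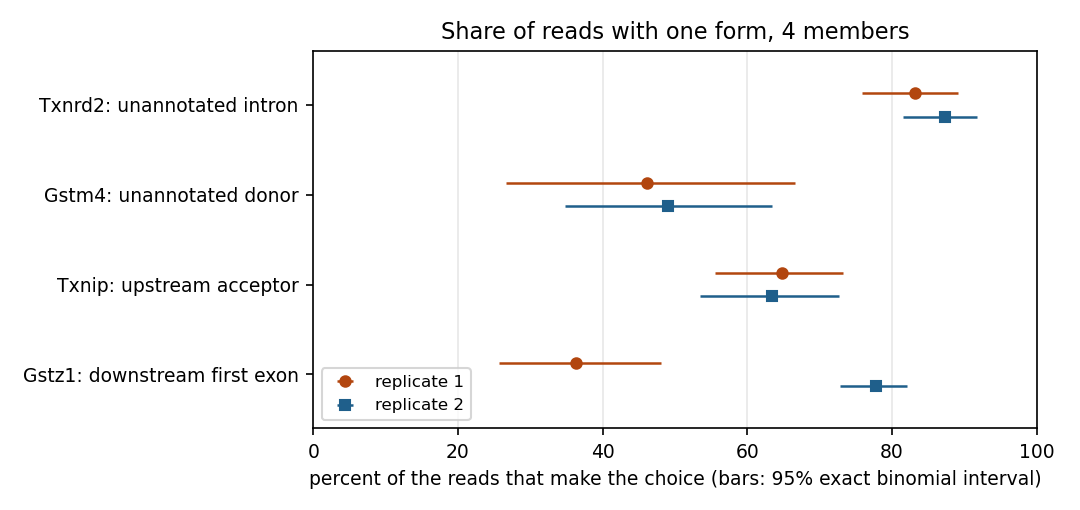
Share of reads, in percent of the reads that make the choice, with the unannotated Txnrd2 intron, the unannotated Gstm4 donor, the upstream Txnip acceptor and the downstream Gstz1 first exon; replicate 1 above replicate 2, bars are 95% exact binomial intervals. The intervals overlap for Txnrd2, Gstm4 and Txnip and are apart for Gstz1, 36.4% in replicate 1 against 77.7% in replicate 2.

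The transhydrogenase Nnt is annotated as 2 overlapping gene records on chromosome 13, − strand. ENSMUSG00000025453.18 (chr13:119335448-119408997) has 5 annotated transcripts, and ENSMUSG00000116207.1 (chr13:119335528-119408952) has 1, Nnt-206. As background, the reference strain C57BL/6J carries a deletion of several Nnt coding exons, and models built on the mm10 genome cannot hold bases that it lacks. Nnt-206 and Nnt-202 of the other record share the same chain of 16 introns, so reads of that chain fit both. The authors' assignment put all 44 reads of the full chain in replicate 1 and all 41 in replicate 2 under Nnt-202. Under the second record stood no read of a known transcript. It held 35 reads in replicate 1 and 24 in replicate 2, on 21 and 17 models with no full annotated match. Those were 42.2% (31.4 to 53.5%) of the 83 Nnt reads in replicate 1 and 34.8% (23.7 to 47.2%) of 69 in replicate 2. Over both records, incomplete splice matches made up 6 of the 83 reads in replicate 1 and 9 of the 69 in replicate 2.

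Adding both records, Nnt had 110 CPM in replicate 1, against 57.0 CPM in replicate 2. The first record had 63.8 CPM in replicate 1 and 37.2 CPM in replicate 2 (log2 ratio 0.78 ± 0.30, Fisher's exact adjusted p = 0.0304) and the second 46.5 and 19.8 CPM (1.22 ± 0.38, Fisher's exact adjusted p = 0.00468). Neither was called with TMM factors (0.42 and 0.86). The join of annotated exons 6 and 7 was present in 77 of 83 reads in replicate 1 and 62 of 69 in replicate 2. These models cannot show whether such a read held bases that mm10 lacks, so the join does not separate the alleles of the hybrid. Reads counted here joined the second exon to the annotated first exon or to 1 of 2 unannotated ones. Donors of those 2 lie 437 and 19684 bases upstream. The annotated first exon took 53 of 68 such reads in replicate 1 and 51 of 55 in replicate 2. The nearer and the farther unannotated exon had 7 and 8 reads in replicate 1 and 2 and 2 reads in replicate 2. A few other reads reached the second exon from further donors and are not in these totals.

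Some levels are uncertain for another reason. Of the 60 symbols, 6 overlap another gene record on the same strand (Nnt through its 2 records) and 15 a gene on the opposite strand. Expressed partners on the opposite strand included Acss2 beside Gss, with 169 reads in replicate 1 and 320 in replicate 2, and Junb and Rnaseh2a beside Prdx2, with 56 and 64 reads in replicate 1 and 116 and 49 in replicate 2. Of partners on the same strand other than the 2 Nnt records, none had more than 1 read in a library.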

How the data were processed

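Long-read RNA sequencing of 2 adrenal libraries was analysed from the read counts per transcript model that the authors deposited for each library, not normalised, with transcript annotations whose coordinates are 1-based. Both use mm10 with GENCODE M21 genes, per the file headers; aligner and tool versions: not given in the sources used here. Genes and lists were chosen with earlier results of these data known. Counts were summed by gene, and CPM computed over reads in annotated genes (752432 in replicate 1, 1210671 in replicate 2); spike-ins (1.39% and 1.33% of reads) and other loci (3.84% and 4.85%) were left out.

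Fisher's exact test needed 10 reads over both libraries and was adjusted by Benjamini-Hochberg over 11382 genes; log2 ratios used a prior of 0.5 reads. Leading-model shares needed 20 reads in each library. Both tests were checked on simulated data. TMM factors (edgeR 4.0.16) and DESeq2 1.42.0 size factors were used for scaling alone, in an exact binomial test. Intervals are exact (Clopper-Pearson or Poisson, 95%). Coding identity is from global alignment (Biopython 1.88) of the longest annotated coding sequence of each gene. The genes named are those with a mean of at least 100 CPM, the 5 most extreme ratios in each direction, chains and records picked by read number, their paralogs, and the 4 highest of each pathway list. Of the genes that overlap these records, 1 is not reported here. No column of another sample was present.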

Additional observations from a re-analysis of the deposited data

How the results depend on the processing

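No paired analysis was possible because the study holds 1 group of 2 libraries. Leaving 1 library out only returns the value of the other, so it is no separate check. The summed level, 12401 CPM as the mean, was 10471 CPM in replicate 1 alone and 14330 CPM in replicate 2 alone. The share of Nnt reads under the second record, 38.5% as the mean, was 42.2% in replicate 1 and 34.8% in replicate 2. That share was 32.2% without incomplete splice matches and genomic models. Of 55 records, 36 were called between the libraries, 34 with each other scaling, and 19 when only differences of at least 2-fold counted (24.4% of all genes then). Leading-model shares called numbered 1 without incomplete splice matches and genomic models, against 7 with them, and the cause was not tested. How far that filter lowers the share called over all genes is not given. The 15 recurrent unannotated chains became 65 with at least 1 read in each library and 3 with at least 5.

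Of 35 named log2 ratios, 23 kept their direction and their side of the threshold with TMM factors, 6 lost their call (Txn2, Glrx3, both Nnt records, Prdx2 and Txnip), 2 gained one (Sod2 and Gpx4) and 7 changed sign, among them Prdx2, Txnip and Gpx4. With TMM, DESeq2 and trimmed totals, in that order, the 7 lay at -0.306, -0.313 and -0.306 for Gstm7, -0.016, -0.023 and -0.016 for Prdx2, -0.177, -0.183 and -0.176 for Glrx5, -0.344, -0.351 and -0.344 for Gss, -0.003, -0.009 and -0.002 for Txnip, -0.024, -0.030 and -0.023 for Txnrd2, and -0.282, -0.288 and -0.282 for Gpx4. Trimmed totals leave out the 618 genes over 10-fold different, which held 1.07% of replicate 1 and 22.8% of replicate 2. Depth limits the genes under 20 reads, such as Nqo1 and Gstp2, and no comparison has a replicate check.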
